A study of Brassica napus with 6 samples.

Results

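Oilseed rape (Brassica napus) seeds carried a set of 80 genes that were on in both libraries of day 30 after flowering and nearly without reads in both libraries of day 50. A gene was taken where it had an ID beginning with Bna, at least 10 CPM (reads per 1000000 reads counted in the library) in each library of day 30, and at most 6 reads in the 2 libraries of day 50 together. The 80 genes are drawn from 72611 genes in the series, of which 68938 have such an ID and 18994 of those reached the level of day 30. RNA was sequenced from seeds of plants droughted from the start of flowering, taken 30, 40 and 50 days after flowering, and from seeds of control plants of the same days. Each treatment had 1 library per day, so the 6 libraries hold no replicate. All plants grew under a rain shelter. The growth label names 6 lines, and neither the line behind a library nor pooling of plants is given in the labels.

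A Brassica seed first grows a seed coat and a transient endosperm around a dividing embryo. It then fills the embryo's storage leaves with oil and protein and finally dries. Transcripts of the early program, such as those for cell division, cell wall growth and seed coat pigments, are known to give way to transcripts for storage and drying tolerance as the seed matures. The files pair the IDs with no gene names. Of the IDs, 2926 matched a symbol in the RefSeq table of the Da-Ae assembly, among them 7 of the 80 genes, and each of these symbols repeats the ID. Those 7 are listed there as protein-coding. No function can therefore be given to any gene of the set, and the label seed could not be checked against marker genes.

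The libraries held 16177156, 10314859 and 15024986 counted reads in drought seeds at days 30, 40 and 50, and 12209126, 13893472 and 14918127 in control seeds. The drought library of day 40 was the shallowest. Ratios between libraries used TMM factors (trimmed mean of M values), which set most genes level. With library totals in place of TMM, the median log2 ratio of drought to control over the other 18914 genes on at day 30 was -0.53 at day 40, against -0.08 with TMM, a shift of -0.45. Such a shift applies to each gene alike, and ratios of the set are given beside those of the other genes. In seeds, which are mixed tissue, fewer cells of a type and less RNA per cell cannot be told apart.

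The genes were chosen by their levels at day 30 and their reads at day 50, and those values are given as a description. At day 30 the set ran from 10.01 to 286 CPM with a median of 15.9 CPM in drought seeds, and from 10.1 to 353 CPM with a median of 25.8 CPM in control seeds. Of the 80 genes, 35 had a mean of day 30 under 20 CPM and 10 a mean of 50 CPM or more. At day 50 the genes held 56 reads in all in drought seeds and 148 in control seeds. A read was seen at day 50 for 25 genes in drought and for 49 in control, and 26 genes had none in either library. At the limit of day 50, 14 genes stood at 6 reads and 6 other genes stood just outside at 7 reads. Those at 6 reads had kept a median of 3.92% of their day 30 level by day 40 in drought and 18.7% in control, and those at 7 reads 5.82% in drought and 20.1% in control. At the limit of day 30, the lower of the 2 libraries stood at 10.01, 10.07 and 10.08 CPM in the lowest members and at 9.95, 9.64 and 9.58 CPM in the nearest genes outside. A further 17 new gene models met the same limits but carry no Bna ID and were not included.

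**Figure D1:**
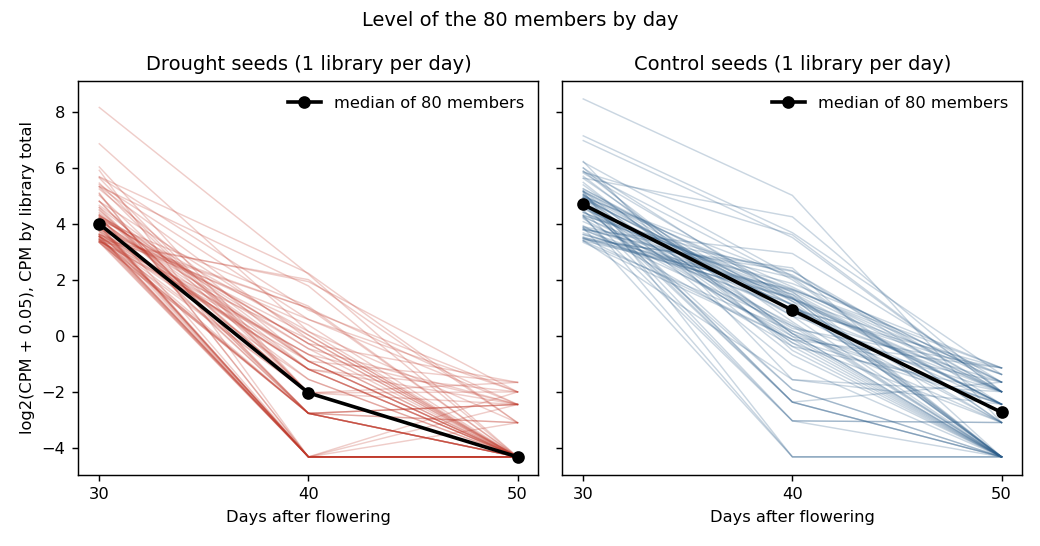
Level of each of the 80 genes in the drought libraries (left) and the control libraries (right) by day after flowering, as log2 of CPM plus 0.05, with 1 line per gene and the median in black. The levels at days 30 and 50 follow from the choice of genes, and at day 40 the drought median (0.194 CPM) lies below the control median (1.84 CPM).

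By day 40 most of the expression of the set was gone, and more of it was gone in drought seeds. The libraries of day 40 had no part in the choice of genes. Together the 80 genes held 0.00520% of all reads in the drought library of day 40 (536 reads, 95% exact binomial interval 0.00477% to 0.00566%) and 0.0228% in the control library (3161 reads, 0.0220% to 0.0236%). At day 30 they had held 0.201% of reads in drought and 0.280% in control. The summed level at day 40 was thus 4.35% of that of day 30 in drought (95% counting interval 3.99% to 4.74%) and 9.90% in control (9.55% to 10.3%), after TMM scaling. With library totals, as in the shares of reads above, it was 2.58% in drought (2.37% to 2.82%) and 8.13% in control (7.83% to 8.43%). Library totals multiply the share kept by each gene by 0.594 in drought and by 0.821 in control, and the shares that follow use TMM unless said otherwise. Without the most abundant gene the TMM values were 4.63% in drought and 9.72% in control. These intervals cover counting error and leave out differences between plants.

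Gene by gene the loss spread widely. The median gene kept 1.89% of its day 30 level at day 40 in drought, with quartiles of 0.561% and 6.22%, and 7.68% in control, with quartiles of 3.02% and 17.1%. The highest share kept was 65.6% in drought and 67.6% in control, so no gene of the set was higher at day 40 than at day 30 in either treatment. Of all 18994 genes on at day 30, 8084 were higher at day 40 in drought and 9086 in control. The choice of genes, on at day 30 and nearly without reads at day 50, favours such a fall. With genes at 0 reads set to a floor of 3 reads per library, the medians were 3.68% in drought and 7.68% in control. Among the other 18914 genes on at day 30 the median kept was 91.5% in drought and 98.3% in control.

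Under 10% of the day 30 level was kept by 69 of the 80 genes in drought and by 47 in control. Of all 18994 genes on at day 30, 1.54% kept under 10% in drought and 0.537% in control. Both treatments had fallen under 10% for 44 genes, drought alone for 25, control alone for 3, and neither for 8. Over all 18994 genes on at day 30 these counts were 75 in both, 218 in drought alone, 27 in control alone and 18674 in neither. Over 50% was kept by 2 genes in drought and by 3 in control, where 86.1% of all genes on at day 30 kept that much in drought and 93.2% in control. The fall was at least 16-fold for 58 genes in drought and for 33 in control, against 0.879% of all genes on at day 30 in drought and 0.311% in control. At most 3 reads were left at day 40 for 43 genes in drought and for 12 in control, where 0.384% of all genes on at day 30 had so few in drought and 0.079% in control. The control library of day 40 was 1.84 times as large in effective size, and with its reads scaled down to the drought library 14 genes had at most 3. All 12 genes with at most 3 reads in control were also at or under 3 in drought. Had each gene kept the same share in drought as in control, the median gene would have had 9.02 reads in the drought library of day 40, where it had 2.

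**Figure D2:**
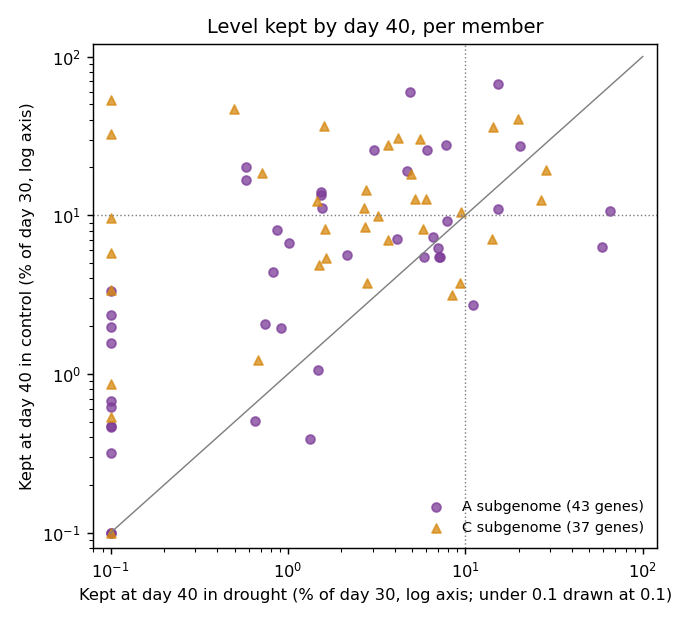
Share of the day 30 level kept at day 40 for each of the 80 genes, in drought (horizontal) and in control (vertical), on log axes with values under 0.1% drawn at 0.1%. The dotted lines mark 10%, the diagonal marks equal shares, and 61 genes kept less in drought, 16 kept more and 3 had no read at day 40 in either.

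Kept shares were lower in drought for 61 of the 80 genes and higher for 16. Of all genes on at day 30, 57% kept less in drought. Among the 523 of them with 7 to 60 reads at day 50, 407 kept less in drought and 116 more, so this was not particular to the set. With library totals 66 of the 80 genes (82.5%) kept less in drought, no more than the 82.7% of all genes on at day 30. Across the 80 genes the shares kept in drought and in control had a Spearman correlation of 0.471, a description over genes that share the same 4 libraries. Genes with no read at day 50 had already lost more by day 40. This is a description only, because the reads of day 50 had a part in the choice of genes. These 26 genes kept a median of 0.668% in drought and 2.16% in control, whereas the 54 genes with 1 to 6 reads at day 50 kept 4.15% in drought and 10.8% in control. Genes of the lowest levels at day 30 kept larger shares by their median than the others of the set. The 22 genes with a mean under 15 CPM at day 30 kept a median of 5.38% in drought and 16.4% in control, the 37 genes with 15 to 30 CPM kept 1.54% in drought and 5.49% in control, and the 21 genes with 30 CPM or more kept 1.01% in drought and 5.61% in control. The level of day 30 enters both sides of that comparison, and all of these genes had to fall to the same few reads by day 50. By the median share kept, the 523 genes on at day 30 with 7 to 60 reads at day 50 stood between the set and the rest. They kept a median of 16.4% in drought and 35.8% in control.

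Single genes show the range. BnaC03g45710D, the gene of the set with the highest level at day 30 both in CPM and in CPM per kilobase of gene length, stood at 286 and 4.56 CPM in drought seeds at days 30 and 40 with no read at day 50. In control seeds it stood at 353 and 32.3 CPM with 1 read at day 50. Drought was lower at days 30 and 40, and by day 40 the gene had kept 2.68% of its level in drought and 11.2% in control. BnaA01g10710D, the gene with the second highest CPM, stood at 116 and 1.07 CPM in drought with 1 read at day 50, and at 141 and 12.8 CPM in control with 5 reads. It had kept 1.55% in drought and 11.0% in control. At the far end, BnaAnng33440D, BnaC05g20990D and BnaA05g06580D were without a read in all 4 libraries of days 40 and 50. They had 542, 187 and 247 reads in drought at day 30, and 438, 240 and 177 reads in control. At the other end, 3 genes kept over 50% in control. BnaA07g27370D kept 15.3% in drought and 67.6% in control, BnaA08g03760D kept 4.84% in drought and 60.03% in control, and BnaC03g02420D had no read in drought at day 40 against 68 reads in control, or 53.2% kept. These 6 genes were chosen after their values were seen. With 3 reads as the floor, BnaC03g02420D was at least 12.3-fold lower in drought at day 40.

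The drought ratio at day 40 rests on 64 genes with at least 10 reads in the 2 libraries of that day together. The other 16 genes had a median of 2 reads in control and at most 2 in drought, too few for a ratio. Summed over all 80 genes, the level was 3.20-fold lower in drought than in control at day 40 (95% counting interval 2.92 to 3.51), and 4.38-fold lower with library totals. The median log2 ratio over the 64 genes was -2.10, with quartiles of -2.996 and -0.72. It was -1.97 with the 7 genes that had no drought read set to 3 reads. The minimum adds the reads of both libraries, so the deeper control library weighs more in which genes pass. Without a minimum the median over all 80 genes was -1.82, and 63.75% showed a drop of 2-fold or more in drought, in place of 67.2%. A minimum of 30 reads gave a median of -2.24 over 45 genes, with 71.1% showing such a drop. The median over the other genes on at day 30 was -0.08, and over the genes with 7 to 60 reads at day 50 it was -1.04.

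Of the 64 genes, 43 were at least 2-fold lower in drought at day 40 and 2 at least 2-fold higher, where 6.34% and 2.88% of the 18975 genes with enough reads were. Among the 521 of these with 7 to 60 reads at day 50, 53.0% were at least 2-fold lower and 3.65% at least 2-fold higher. Much of the contrast with all genes is thus shared by that group. At least 8-fold lower were 16 genes, against 0.321% of the 18975 and 6.53% of the 521. Lower by any amount were 56 genes and higher were 8, where 43.7% of the 18975 were higher. The 95% counting interval of the ratio lay below 1 for 42 of the 64 genes and above 1 for 2, where it lay below 1 for 33.4% of the 18975 genes and above 1 for 24.7%. With no replicate on a day these intervals compare the 2 libraries, and a difference between plants or lines cannot be told apart from drought.

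In the 5 genes that averaged 5 CPM or more over the libraries of day 40, drought was lower by very unequal folds. No gene of the set exceeded 4.65 CPM in drought that day, so the limit could be passed only with a higher CPM in control. The shared direction of these 5 genes follows from that limit and is not a result. BnaC06g03870D had 2 reads in the drought library of day 40 against 264 in the control library, 71.7-fold lower in drought with a counting interval of 19.6 to 595. At day 30 the same gene was the higher in drought, with 65.5 CPM against 49.6 CPM in control. BnaA01g10710D was 8.78-fold lower in drought at day 40 (interval 4.79 to 17.9). BnaC03g45710D was 5.19-fold lower (3.83 to 7.16). BnaA03g31730D stood at 1.84 CPM in drought and 12.2 CPM in control at day 40 and was 4.83-fold lower (2.998 to 8.22). Its levels at day 30 were close, at 50.9 CPM in drought and 57.5 CPM in control. BnaA09g19480D was the least apart, at 4.65 CPM in drought and 11.4 CPM in control at day 40, 1.79-fold lower (1.29 to 2.52). It was already lower in drought at day 30, at 51.4 CPM against 126 CPM in control, and the share kept by day 40 was 15.2% in drought and 11.0% in control with TMM but 9.06% in drought and 9.05% in control with library totals.

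The 2 genes that were over 2-fold higher in drought at day 40 were BnaA07g06230D and BnaA09g05730D, named after their values were seen. BnaA07g06230D had 174, 39 and 3 reads in drought at days 30, 40 and 50, and 222, 13 and 0 reads in control. The ratio of drought to control at day 40 was 5.53 (counting interval 2.89 to 11.3), and the share kept was 59.2% in drought and 6.27% in control. BnaA09g05730D had 165, 41 and 1 reads in drought and 171, 17 and 3 in control, a ratio of 4.44 at day 40 (2.47 to 8.34) with 65.6% kept in drought and 10.6% in control. Both were lower in drought at day 30. Both are short genes, with deposited lengths of 373 and 494 bases.

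**Figure D3:**
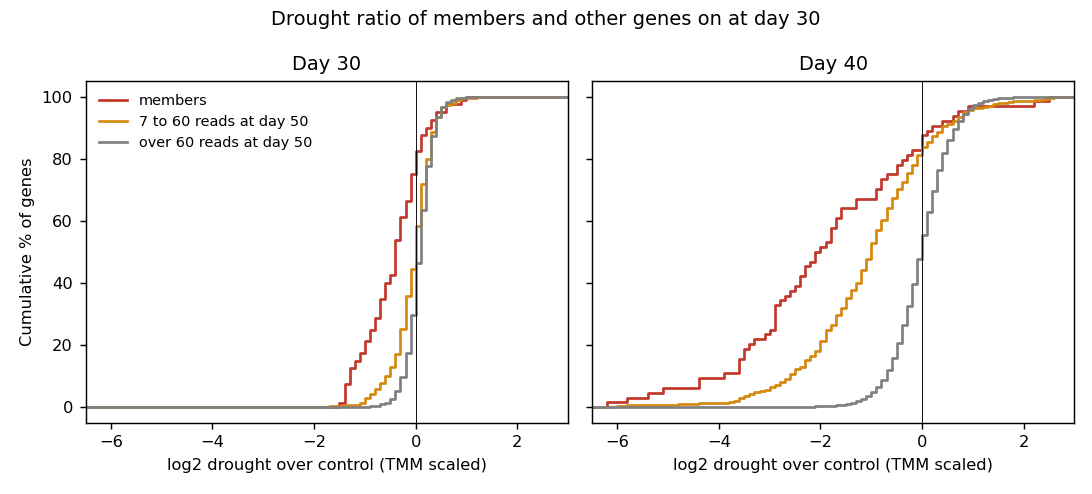
Cumulative share of genes by the log2 ratio of drought to control at day 30 (left) and day 40 (right), for the set (red), the 523 genes with 7 to 60 reads at day 50 (orange) and genes with over 60 reads at day 50 (grey), all on at day 30. By its median the set lies furthest to the left on both days, at log2 ratios of -0.46 at day 30 and -2.10 at day 40.

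At day 30 the set was already lower in drought, by less. The choice of genes asked for 10 CPM in both libraries of day 30 and so limits how far apart they can be near that level. The summed level was 1.41-fold lower in drought (counting interval 1.38 to 1.43). The median log2 ratio was -0.46 over the 80 genes, with a range of -1.52 to 0.91, and 0.02 over the other genes on at day 30. Lower in drought were 66 genes and higher were 14, while 53.2% of all genes on at day 30 were higher. At least 2-fold lower were 17 genes and at least 2-fold higher were 0, where 0.4% and 0.242% of all genes on at day 30 were. The 17 are 21.3% of the set, a share that was 42.3% among the 26 genes with no read at day 50 and 8.70% with at least 20 CPM asked for in both libraries of day 30. By level, the median log2 ratio at day 30 was -0.08 for the 22 genes with a mean under 15 CPM, -0.76 for the 37 with 15 to 30 CPM and -0.44 for the 21 with 30 CPM or more. The other genes of these levels had medians of 0.00, 0.03 and 0.02.

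The sign of the drought ratio changed between the days for some genes. Of the 64 genes with a ratio on both days, 44 were lower in drought at days 30 and 40, 12 were higher at day 30 and lower at day 40, 8 were lower at day 30 and higher at day 40, and 0 were higher on both days. Of the 18975 genes with enough reads, 24.6% were lower on both days, 31.8% higher and then lower, 22.2% lower and then higher, and 21.5% higher on both. Counting intervals on both days lay clear of 1 on opposite sides for 4 genes of the set that were higher and then lower and for 2 that were lower and then higher, or 6.25% and 3.13% of the 64, against 9.01% and 5.49% of the 18975. Across these genes the ratios of the 2 days correlated at -0.165 (Pearson) and -0.163 (Spearman), against -0.06 and -0.09 over the 18975, and the 2 ratios share no library. BnaAnng10280D was the gene with the highest ratio at day 30, at 28.0 CPM in drought against 14.7 CPM in control, and had 1 read in drought against 34 in control at day 40. BnaC07g04500D had 22.9 CPM in drought against 12.8 CPM in control at day 30, and 1 read in drought against 27 in control at day 40. Both genes were chosen after their values were seen.

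Over the 3 days together, drought was tested with edgeR's quasi-likelihood test, in a fit to all genes that had both day and treatment as terms. All 80 genes passed the filter on low counts, and 0 of them were called at an adjusted p under 0.05, while 0.00602% of 49832 genes tested were called. The smallest adjusted p in the set was 0.428 in edgeR's test, for BnaC07g43700D, named for that reason. At an unadjusted p under 0.05, 27 of the 80 genes passed, all lower in drought, where 3.2% of all genes tested passed as lower and 7.33% in either direction. The test includes the libraries of days 30 and 50 that chose the genes. Nothing is therefore read from that count, from the like counts of other tools and settings given below, or from the fitted ratios. DESeq2 and limma voom also called 0 genes of the set, while they called 240 and 137 of the 49832 genes tested. At an unadjusted p under 0.05, 20 and 26 genes of the set passed, all lower in drought. Of all genes, 2.51% passed as lower in DESeq2 and 3.50% in limma voom. The median fitted log2 ratio of the set was -0.98, and it was below 0 for 74 genes, where it was below 0 for 52.6% of all genes tested. Over all genes tested the median was -0.03. In this model a drought change that differs between days adds to the spread, and each gene has 2 residual degrees of freedom. For BnaA01g10710D the fitted log2 ratio was -1.47 with an adjusted p of 0.634 in edgeR's test. For BnaC06g03870D, which changed sign between days, it was -1.72 with an adjusted p of 0.744.

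Both subgenomes contributed. By their IDs, 43 genes (53.8%) came from the A subgenome and 37 (46.3%) from the C subgenome. Of the other genes on at day 30, 48.6% were A genes and 51.2% C genes. The A genes of the set kept a median of 1.54% by day 40 in drought and 5.61% in control, and the C genes 2.75% in drought and 10.4% in control. Under 10% was kept by 37 A genes in drought (86.0%) and 29 in control (67.4%), and by 32 C genes in drought (86.5%) and 18 in control (48.6%). Of the other genes on at day 30, 1.25% of A and 1.12% of C genes kept under 10% in drought, and 0.337% and 0.237% in control. The median drought log2 ratio at day 40 was -1.97 over 30 A genes and -2.27 over 34 C genes, and at day 30 it was -0.47 and -0.42. Whether A and C genes differ was not tested.

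The genes were spread over all 19 chromosomes named in the IDs, with 7 each on A03 and A09, 6 on A01 and 1 on C02, while 9 had IDs not placed on a chromosome. Of the genes on at day 30, between 0.164% on C02 and 0.758% on A08 belonged to the set. Among 71 placed genes, 6 (8.45%) had another gene of the set as the next ID, as did 26 of the 17192 other placed genes on at day 30 (0.151%). The near neighbours formed 3 runs. BnaA01g10710D and BnaA01g10720D are next to each other with lengths of 1584 and 1581 bases. BnaC04g43600D, BnaC04g43610D and BnaC04g43640D lie within a few IDs of each other with lengths of 408, 411 and 411 bases. BnaC06g34860D and BnaC06g34870D are next to each other with lengths of 1034 and 981 bases. Near-identical copies can share reads, so the split of reads within such runs, and between A and C copies, is uncertain.

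Neighbours did not all move alike. BnaA01g10710D kept 1.55% by day 40 in drought and 11.0% in control, and BnaA01g10720D 6.97% in drought and 6.26% in control, an order that turned with library totals, at 4.14% in drought and 5.13% in control. Within the run on C04, BnaC04g43600D kept 3.23% in drought and 9.92% in control. BnaC04g43610D kept 5.79% in drought and 8.20% in control, and BnaC04g43640D 19.8% in drought and 40.6% in control. BnaC06g34860D kept 28.4% in drought and 19.2% in control, and its neighbour BnaC06g34870D 2.78% in drought and 3.76% in control. Some of these shares rest on few reads at day 40. BnaA01g10720D had 8 reads in drought and 26 in control, BnaC06g34870D 2 and 14, and BnaC06g34860D 20 and 30. For each of them the counting interval of the drought ratio at day 40 held 1.

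The set held many short genes. The median deposited length was 1074 bases, with quartiles of 437 and 1537 bases, against a median of 1758 bases in the other genes on at day 30. Under 700 bases were 31 genes of the set (38.8%) and 7.51% of the others. Length moved with the drought ratio of day 40 among the other genes, whose median log2 ratio was 0.42 under 700 bases, 0.11 from 700 up to 1500 bases and -0.21 at 1500 bases and over. In the set the medians in these classes were -2.09, -2.17 and -1.57, over 28, 18 and 18 genes. With library totals the medians of the other genes were -0.03, -0.34 and -0.66 in these classes, so that the sign of the first and second turned, and those of the set were -2.54, -2.62 and -2.02. With the trend on length removed, the median of the set was -2.49 in place of -2.10 at day 40, and -0.35 in place of -0.46 at day 30.

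**Figure D4:**
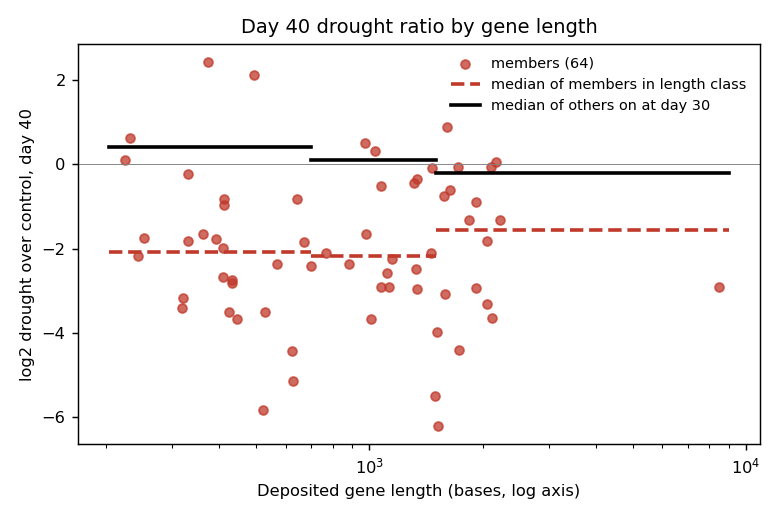
Log2 ratio of drought to control at day 40 against deposited gene length (log axis) for the 64 genes of the set with at least 10 reads that day. Dashed red lines mark the median of the set and black lines the median of the other genes on at day 30 in 3 length classes, and the set lies lower in each class.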

How the data were processed

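The authors deposited raw counts and a length for each gene, with the 6 libraries in 1 table, and for each library a file read here as FPKM, since the submitters' processing notes name Cufflinks. The deposited FPKM were used as an alternative. Not given in the sources used here are the aligner, counter, genome build, strand setting and treatment of reads with several matches. The deposited counts were analysed with edgeR 4.0.16, limma 3.58.1 and DESeq2 1.42.0 in R 4.3.3, and with pandas 2.3.3, scipy 1.17.1 and statsmodels 0.14.6.

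CPM were taken by library total. Ratios and shares kept used TMM scaling, and log2 ratios a prior of 0.5 reads. Counting intervals are exact binomial at 95%. The test used filterByExpr with the day and treatment design, Benjamini-Hochberg adjustment over all genes and two-sided tests, and was checked on simulated data. The genes named by rule are the 2 of highest mean CPM at day 30 and the 2 highest and 2 lowest drought ratios at day 40 among genes of at least 5 CPM that day. Members, lists and rules were chosen with earlier results of these data known. Nothing says that libraries came from separate plants.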

Additional observations from a re-analysis of the deposited data

Results flagged for a closer look

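For 10 genes named above the log2 drought ratio lay on opposite sides of 0 at days 30 and 40. With 1 library per treatment and day, the difference between days was not tested. Opposite signs were seen in 20 of the 64 genes of the set with a ratio on both days (31.25%). They were more common among all 18975 genes with enough reads (53.95%), so a change of sign is not particular to the set. The 95% counting interval of the ratio at day 30 held 1 for BnaA07g27370D, BnaA08g03760D, BnaC03g02420D, BnaC04g43640D and BnaC06g34860D, and for these 5 the sign at day 30 is within counting error. For BnaC06g34860D the interval at day 40 held 1 as well, and with library totals the gene was lower in drought on both days. For the other 5 genes the intervals of both days lay clear of 1. As log2 of drought over control, BnaC06g03870D had -5.84 at day 40 and 0.38 at day 30. BnaC03g02420D, which had no drought read at day 40, had -6.22 at day 40 with a prior of 0.5 reads and 0.09 at day 30. BnaAnng10280D had -3.64 at day 40 and 0.91 at day 30, and BnaC07g04500D had -3.32 and 0.83. BnaA08g03760D had -3.17 at day 40 and 0.30 at day 30. BnaA07g27370D had -2.10 at day 40 and 0.000134 at day 30. BnaC04g43640D had -0.81 at day 40 and 0.20 at day 30. Higher in drought at day 40 and lower at day 30 were BnaA07g06230D, at 2.43 and -0.77, BnaA09g05730D, at 2.13 and -0.47, and BnaC06g34860D, at 0.31 and -0.27. BnaC06g34860D had -0.14 at day 40 and -0.25 at day 30 with library totals.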

How the results depend on the processing

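The direction of the set's median losses and median drought ratios held under each alternative run for them, and so did the day 40 ratio of 18 of the 19 named genes tried. BnaC06g34860D turned to -0.14 with library totals, from 0.31, by the shift of -0.45 that this scaling gives each gene alike. The alternatives were library totals, relative log expression factors, the authors' FPKM, a prior of 2 reads, other minimums of reads, removal of the length trend and stricter limits on members. Of these values for the set, 54 stayed within the 95% binomial interval of the value reported or at a count of 0, and 10 moved beyond it. That interval is taken over genes that share the same libraries, so it describes the spread between genes and tests nothing. It is wide enough to hold a median log2 loss in drought of -4.50 with a prior of 2 reads, in place of -5.36. With library totals the median log2 loss in drought by day 40 was -6.11 in place of -5.36. With members limited to the 26 genes without a read at day 50, the median losses were -6.77 in drought and -5.47 in control (in place of -3.68), and 100% of genes in drought and 84.6% in control kept under 10%. The median drought ratio was then -2.74 at day 40 and -0.89 at day 30, with 86.7% and 42.3% of genes at least 2-fold lower. With at least 20 CPM asked for at day 30, 8.70% were at least 2-fold lower that day in place of 21.3%. Removing the length trend moved BnaC03g45710D to -2.84 from -2.36 at day 40. No gene of the set was called by any tool, without the filter on low counts (38 at an unadjusted p under 0.05, all lower, against 3.82% of all genes) or with any day left out. Over all genes edgeR's test called 467 of 70149 without the filter. It called 152 of 45435 without day 30, 0 of 49085 without day 40 and 25 of 47734 without day 50. In these 4 fits the smallest adjusted p of the set in edgeR's test was 0.0704, 0.0876, 0.840 and 0.363. Without day 30 the filter kept 21 of the 80 genes, and the fitted log2 ratio was below 0 for 15 of them. In edgeR's test 5 of the 21 had an unadjusted p under 0.05, 4 lower and 1 higher in drought. Of all genes tested without day 30, 12.1% passed in either direction and 5.69% as lower. With a filter chosen after seeing the data, which asks for reads in 3 libraries, 63 were tested and 0 called, against 1 of 46483 genes tested. Of the 63, 20 had an unadjusted p under 0.05, all lower, against 3.03% of all genes. None of these unadjusted counts is read as a result, because each fit holds libraries that chose the genes. The test itself pairs drought with control by day. No paired analysis was possible beyond that, because each group has 1 library. Depth limits the day 40 values, where the median gene had 2 reads in drought, and every drought ratio of that day rests on that library.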
